A study of Homo sapiens with 4 samples.

Results

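Histone messages were examined as a set of 89 genes: 88 protein-coding histone genes, taken by their GENCODE symbols (H1-, H2AC, H2AX, H2AZ, H2AJ, H2AB, H2BC, H3C, H3-, H4C and MACROH2A), and H3P6, a processed pseudogene of a histone H3 gene. By symbol, 70 of them were classed as clustered genes and 18 as replacement genes. The latter class takes in every other histone gene, also H3-4, which lies in a histone cluster on chromosome 1. Of the 89, 85 were found by identifier in the gene table of 65217 genes, and the other 4 (H2AC18, H2AC19, H3C2 and H3C3) were read from the transcript files. The samples were SEM cells, a human B-cell precursor leukaemia line with the KMT2A-AFF1 (MLL-AF4) fusion, that had been transplanted into immunodeficient mice aged 6 to 10 weeks. The brain group was cells from the leptomeninges, the membranes around the brain, and the spleen group was cells from the spleen of transplanted mice, with 2 libraries in each group. Each library held the pooled RNA of 5 mice, so that the spread between single mice was not measured, and libraries 1 and 2 came from independent occasions. All 4 libraries are of 1 cell line, no group was free of transplantation, and the mouse strain is not given in the sources used here.

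Nucleosomes are built from histones H2A, H2B, H3 and H4, and linker histone H1 binds the DNA between them. Clustered (replication-dependent) histone genes lie in dense groups of near-identical copies, are transcribed mainly while DNA is being replicated, and end their messages in a conserved RNA stem-loop in place of a poly(A) tail. Replacement histones such as H3.3, H2A.Z and macroH2A are encoded by genes that lie outside these groups and have introns. They are made throughout the cell cycle, and their messages carry ordinary poly(A) tails. The libraries were poly(A)-selected, so the level of a clustered gene here is that of the part of its message that was caught by this selection and not the level of the whole message.

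The stem-loop sets the classes apart in sequence, and it is shown because the selection of RNA acts on the end of the message. In the 150 bases after the stop codon, on the gene's strand of GRCh38, the histone stem-loop consensus of 16 bases was matched exactly in 66 of 70 clustered genes (94.3%) and in 69 of 70 when 1 mismatch was allowed. It was matched in 3 of 18 replacement genes (16.7%), H2AX, H3-4 and H3-7, and in 1 of 19882 other protein-coding genes (0.00503%), against 0.351% of all 19970 protein-coding genes. The first base of the match lay from 23 to 68 bases after the stop codon, with a median of 36. Of the 72 genes with a match of up to 1 mismatch, 70 have complementary letters (A with T, G with C) at all 6 positions of the stem. In these 72 genes 11 distinct forms were found. The most frequent form was carried by 41 genes, among them H1-2 and H3C10, and another by 10, among them H2BC12. The forms of 7 genes described further on are given here, 5′ to 3′, as DNA letters, with both arms of the stem in capitals and the 4 bases of the loop in lower case.
H1-2: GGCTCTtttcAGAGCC
H1-5: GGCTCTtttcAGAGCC
H2AC11: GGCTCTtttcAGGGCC
H2BC12: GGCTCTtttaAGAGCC
H3C10: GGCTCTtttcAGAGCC
H4C14: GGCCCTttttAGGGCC
H2AX: GGCCCTtttaAGGGCC
These lie at chr6:26055744-26055759 (-), chr6:27866797-27866812 (-), chr6:27133515-27133530 (+), chr6:27146366-27146381 (-), chr6:27810516-27810531 (+), chr1:149833032-149833047 (+) and chr11:119094898-119094913 (-). The same window held a poly(A) signal, AATAAA or ATTAAA on the gene's strand, in 7 of 70 clustered genes (10.0%), among them H1-2 and H2BC5, in 5 of 18 replacement genes (27.8%) and in 19.9% of all protein-coding genes. A match describes these letters only.

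Libraries held between 26266136 and 36913437 gene counts in all, and a count of 0 allows up to 3 counts, or 0.0811 to 0.119 CPM, counts relative to the library total after TMM scaling. All 9 B-lineage markers were measured, with a summed level of 2328 to 2457 CPM in brain and 1759 to 1906 CPM in spleen. DESeq2 called 3 of them higher in brain (CD22, CD79B and IGLL1), and of all 17075 genes tested it called 560 higher and 397 lower. By edgeR 1 of the 9 was called higher, CD22 (adjusted p = 0.0147). Markers of other cell types were detected in part. Of 5 T-cell markers, CD3D and CD2 were at 0 counts in every library and TRAC was at 3492 to 4402 counts, so that the list summed to 104 to 119 CPM in brain and 115 to 138 CPM in spleen. Of 6 myeloid markers, FCGR3A and S100A8 were at 0 counts, and the list summed to 6.19 to 6.27 CPM in brain against 9.37 to 10.3 CPM in spleen, with MPO called lower in brain by DESeq2. Of 7 neural and glial markers, SNAP25 was at 0 counts, while SYT1 and MBP made up nearly all of a sum of 155 to 180 CPM in brain against 106 to 117 CPM in spleen. The 6 stromal and endothelial markers, none at 0 in every library, summed to 52.1 to 75.2 CPM in brain against 34.2 to 34.9 CPM in spleen, most of it PECAM1. DESeq2 called SYT1 and PECAM1 higher in brain. By edgeR MPO, SYT1 and PECAM1 were not called (adjusted p = 0.0704, 0.0712 and 0.0672). None of the 5 red-cell markers exceeded 6 counts in a library. Transcripts assigned to mouse took 2.24% and 1.45% of the estimated counts in brain and 4.31% and 6.32% in spleen. Their part in the results was not tested.

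Replacement histone messages were abundant, and all 8 that passed the filter on low counts had a negative log2 fold change of brain over spleen, but none passed the test. The 8 were H3-3A, H2AZ1, H3-3B, MACROH2A1, H1-10, H2AX, H2AZ2 and H2AJ, with a median of -0.40 and a range from -0.83 to -0.14, against a median of 0.04 over all 17075 genes tested. For 7 of the 8 both brain libraries lay below both spleen libraries, which was so for 26.7% of all genes tested, and the exception was H1-10. A fold change below 0 was found in 46.7% of all genes tested. By edgeR's quasi-likelihood test with Benjamini-Hochberg adjustment, 2.02% of all genes were called at an adjusted p under 0.05, 1.63% higher in brain and 0.387% lower. None of the 8 was called, 5 had an unadjusted p under 0.05 (9.94% of all genes did, with lower levels in brain), and DESeq2 called 2 of them lower in brain, H2AX and H2AZ1, where it called 2.33% of all genes. In bulk RNA of this kind, fewer cells making a message and less message per cell cannot be told apart.

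H3-3A and H3-3B encode the same protein, the replacement histone H3.3. H3-3A was at 1052 and 1033 CPM in brain against 1222 and 1271 CPM in spleen. Its brain libraries were both lower, by -0.26 ± 0.13 on the log2 scale (± SE here and for every fold change), which did not pass edgeR's test (adjusted p = 0.312). H3-3B was at 559 and 472 CPM in brain against 573 and 587 CPM in spleen, with -0.17 ± 0.14 (edgeR adjusted p = 0.529). The spread between the brain libraries of H3-3B was larger than the gap from the first of them to the nearer spleen library. Per length, in the TPM the authors deposited, H3-3A was the most abundant histone message of the 4 libraries with a mean of 1546 TPM, followed by H2AZ1 with 1236, H3-3B with 723, MACROH2A1 with 384, H1-10 with 283, H2AX with 236, H2AZ2 with 157 and H2AJ with 7.67 TPM. In that order H1-10 (265 to 297 TPM over the libraries) overlapped H2AX (168 to 323 TPM), and H2AX overlapped H2AZ2 (140 to 176 TPM), while no other neighbours among the 8 overlapped.

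H2AZ1 and H2AZ2 encode H2A.Z, a variant found at promoters and enhancers. H2AZ1 was at 618 and 666 CPM in brain against 936 and 1097 CPM in spleen, so the highest brain library lay well under the lowest spleen library. The log2 fold change was -0.66 ± 0.15, with an edgeR adjusted p of 0.0672. With the occasion as a block in edgeR's fit, taking same-numbered libraries as pairs, its adjusted p was 0.0180, and by DESeq2 it was 0.0122. Over 16 alternatives the adjusted p of H2AZ1 ran from 2.12e-07 to 0.50, and 6 of them called it. H2AZ2 was at 124 and 126 CPM in brain against 160 and 168 CPM in spleen, with a log2 fold change of -0.40 ± 0.13 (edgeR adjusted p = 0.154). The libraries of a group were close together for H2AZ2 and the groups did not overlap.

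H2AX encodes H2A.X, whose phosphorylated form marks DNA breaks, and it is the replacement gene of the 8 that carries the stem-loop. It was at 182 and 212 CPM in brain against 283 and 419 CPM in spleen. Both brain libraries were lower, and the spleen libraries differed from each other by more than the nearest brain and spleen libraries did. The log2 fold change was -0.83 ± 0.20, with an edgeR adjusted p of 0.0943. Its call depended on the fit: the adjusted p was 0.00110 with the occasion as a block in edgeR, 0.0466 with offsets for GC content and length, and 0.0204 by DESeq2. Over its 16 alternatives it ran from 2.97e-08 to 0.321, with 8 calls. Spleen library 2 moved the size: the log2 fold change was -0.51 without that library and -1.14 without spleen library 1, always lower in brain. GC and length offsets called 1.99% of all genes lower in brain.

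MACROH2A1, which encodes the large variant macroH2A1 with an added non-histone domain, was at 446 and 466 CPM in brain against 545 and 658 CPM in spleen. The groups did not overlap, and the log2 fold change of -0.40 ± 0.15 did not pass edgeR's test (adjusted p = 0.186). H1-10, a replacement linker histone, was at 290 and 287 CPM in brain against 287 and 350 CPM in spleen. Its groups overlapped, with a log2 fold change of -0.14 ± 0.15 (edgeR adjusted p = 0.611), and with GC and length offsets the sign turned to 0.04. H2AJ, an H2A gene that lies outside the clusters, was far lower, at 2.89 and 3.04 CPM in brain against 4.19 and 4.67 CPM in spleen. Its log2 fold change was -0.57 ± 0.24 (edgeR adjusted p = 0.233), and its groups did not overlap. Other replacement genes did not pass the filter: H3-7 and H1-8 were at 0 counts in every library, and H1-7, H2AB1, H2AB2, H2AB3, H3-4, H3-5 and MACROH2A2 had at most 6 counts in a library.

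**Figure D1:**
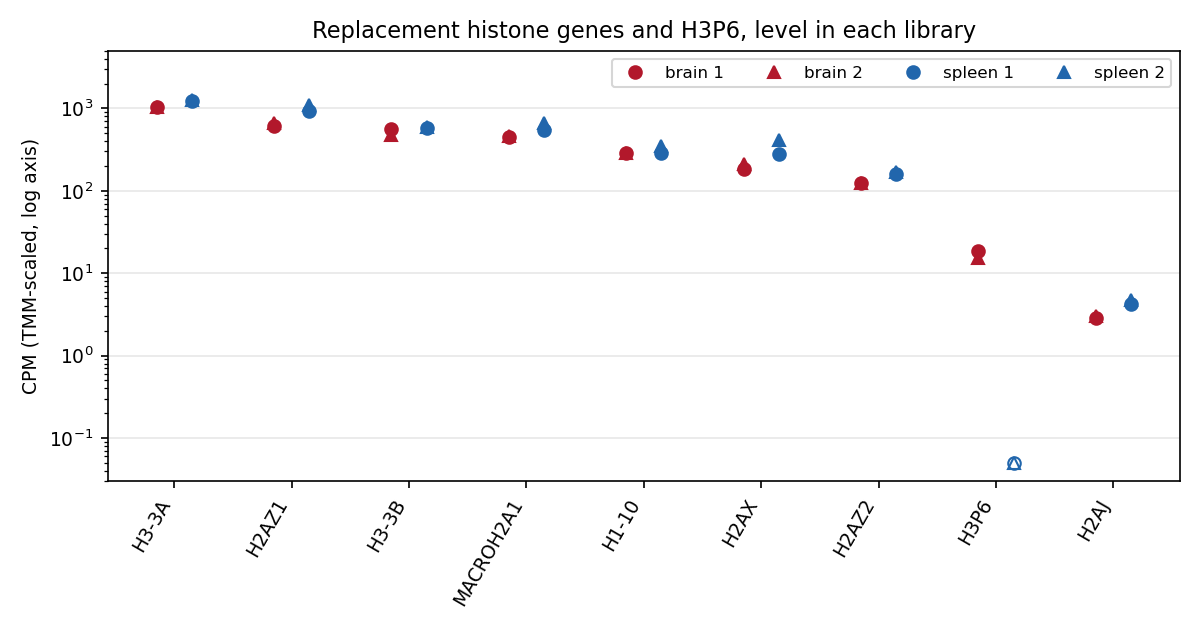
Level of the 8 replacement histone genes that passed the filter and of H3P6 in each library, in TMM-scaled CPM on a log axis, with genes ordered by their mean TPM. Open symbols at 0.05 CPM stand for a count of 0. For all of the replacement genes but H1-10 both brain libraries (red) lie below both spleen libraries (blue), while H3P6 has counts in brain only.

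Clustered histone messages were scarce in these poly(A)-selected libraries, most were lower in brain, and none passed the test. Of the 66 in the gene table, 45 passed the filter, 7 (H1-1, H1-6, H2AC1, H2BC1, H2AC25, H4C7 and H4C12) were at 0 counts in every library, and the other 14 stayed at no more than 18 counts in a library. Of the 45, 37 (82.2%) had a log2 fold change below 0, and the median was -0.42 with a range from -1.63 to 0.66. Both brain libraries lay below both spleen libraries in 24 of the 45 (53.3%, against 26.7% of all genes tested). They lay above them in 5 (30.2% of all genes tested lay above). EdgeR called 0 of the 45. An unadjusted p under 0.05 with a lower level in brain was found for 5 (11.1%, against 9.94% of all genes), and DESeq2 called 1 lower, H1-2 (2.22%, against 2.33% of all genes), so both shares were near the background. The 45 are those that had enough counts to be tested, and they stand neither for all 70 nor for independent observations, because many share sequence.

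**Figure D2:**
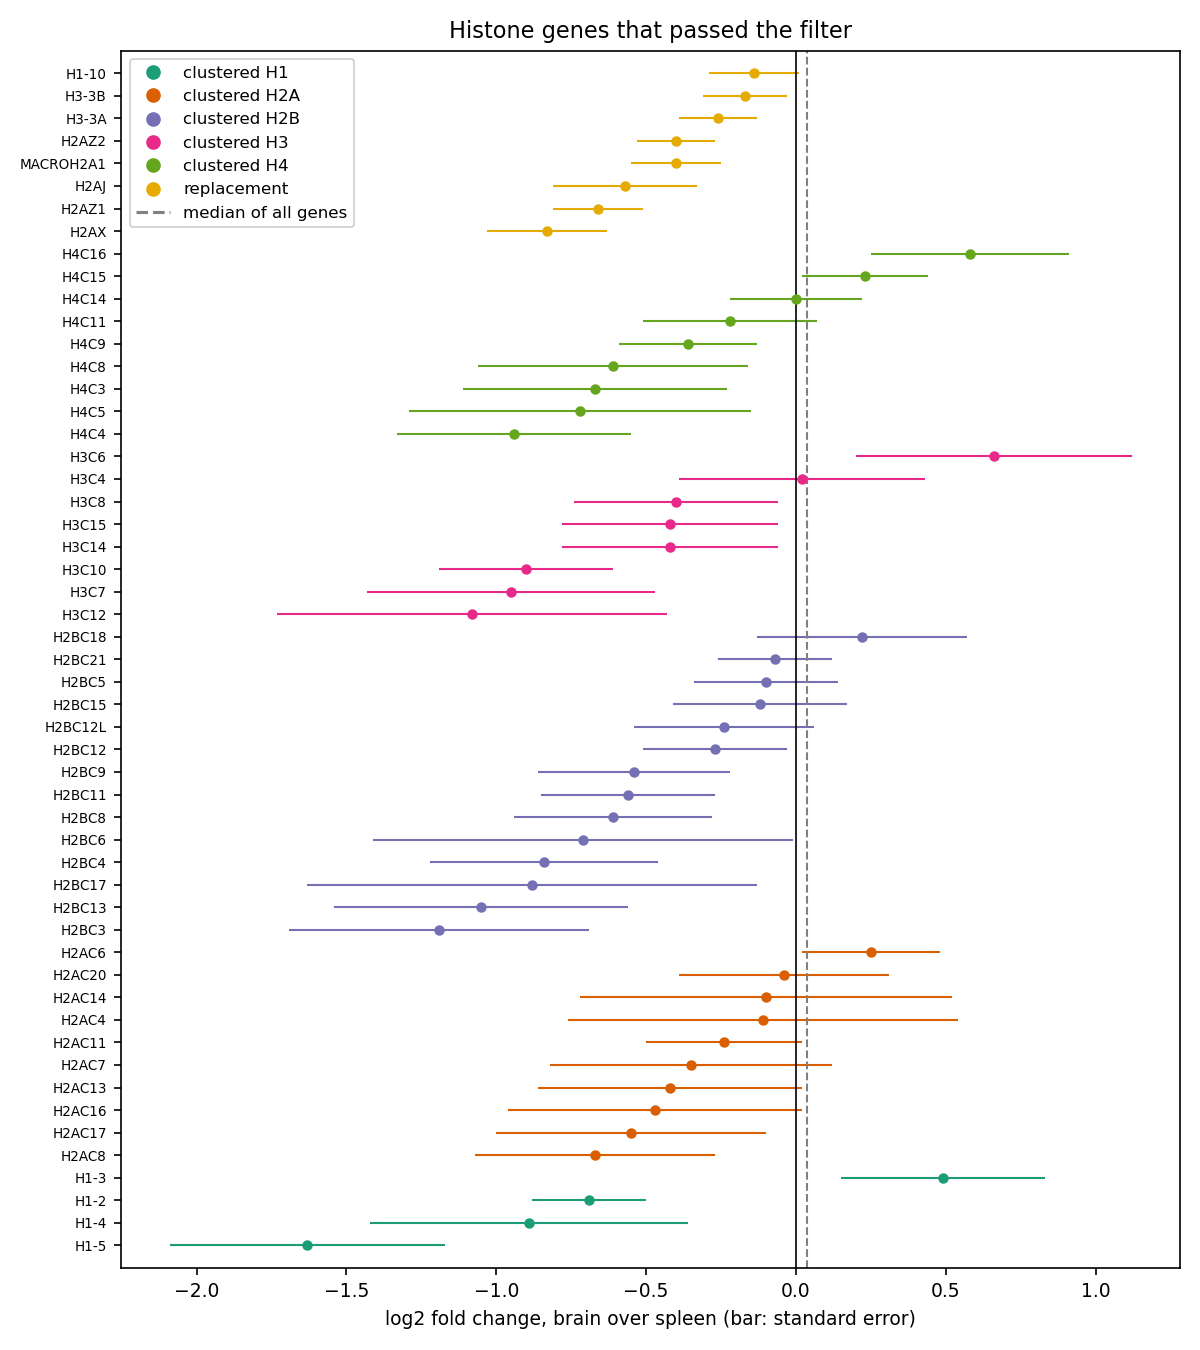
Log2 fold change of brain over spleen with its standard error for the 45 clustered and 8 replacement genes that passed the filter, by family. The dashed line is the median of all genes tested, 0.04, and 37 clustered and all 8 replacement genes lie left of 0 (H4C14 has a value that rounds to 0).

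Linker histones had the lowest median fold change among the 5 clustered families. Summed over the 6 clustered H1 genes, the level was 17.0 and 14.2 CPM in brain against 27.0 and 22.4 CPM in spleen, and 3 of the 4 that passed the filter had a negative log2 fold change, with a median of -0.79. H1-2, which encodes a common somatic linker histone, was at 14.8 and 11.8 CPM in brain against 22.9 and 19.9 CPM in spleen. Its groups did not overlap, and the log2 fold change was -0.69 ± 0.19 (edgeR adjusted p = 0.112). H1-2 was called with the occasion as a block in edgeR (adjusted p = 0.0341) and by DESeq2 (0.0453), and over 16 alternatives its adjusted p ran from 0.00137 to 0.702. H1-5 was at 0.595 and 0.410 CPM in brain against 2.06 and 1.03 CPM in spleen, a difference of -1.63 on the log2 scale ± 0.46 (edgeR adjusted p = 0.113). H1-5 has the lowest fold change of the 45, at levels near 1 CPM, and its spleen libraries lay far apart. With the block its edgeR adjusted p was 0.00930, and over 15 alternatives it ran from 0.00229 to 0.403. With the block edgeR called 3.37% of all genes lower in brain, and of the histone genes it called H1-2, H1-5, H2AX and H2AZ1 lower. H1-3 went the other way, at 1.22 and 1.46 CPM in brain against 0.880 and 1.03 CPM in spleen, with a log2 fold change of 0.49 ± 0.34 (edgeR adjusted p = 0.442).

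Summed over the 19 clustered H2B genes, the level was 32.9 and 30.0 CPM in brain against 40.8 and 35.0 CPM in spleen, without overlap. Of 14 clustered H2B genes that passed the filter, of 19 in all, 13 had a log2 fold change below 0, with a median of -0.55 and a range from -1.19 to 0.22. H2BC21 was at 9.41 and 8.70 CPM in brain against 9.80 and 9.14 CPM in spleen, so that its groups overlapped (log2 fold change -0.07 ± 0.19, edgeR adjusted p = 0.876). H2BC12 was at 7.90 and 6.29 CPM in brain against 9.80 and 7.32 CPM in spleen, again with overlap (-0.27 ± 0.24, edgeR adjusted p = 0.548). H2BC5 was at 3.57 and 4.04 CPM in brain against 4.34 and 3.80 CPM in spleen (-0.10 ± 0.24, edgeR adjusted p = 0.849). All fold changes of the family under -0.27 were those of genes with a mean under 3 CPM in each group.

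The clustered H2A genes had a median log2 fold change of -0.30, with 9 of the 10 that passed the filter below 0, of 17 in all. The log2 ratio of their summed mean levels, brain over spleen, was -0.09 over the 15 in the gene table, which lacks H2AC18 and H2AC19. In TPM, which is scaled otherwise, the ratio over all 17 was -0.20. These 17 summed to 68.9 and 69.8 TPM in brain against 82.6 and 76.5 TPM in spleen, without overlap. H2AC6, the gene of highest CPM among the 10 that passed the filter, was the exception to the direction. It was at 6.30 and 5.77 CPM in brain against 5.55 and 4.55 CPM in spleen (0.25 ± 0.23, edgeR adjusted p = 0.559). Its brain libraries were both above its spleen libraries. H2AC11 was at 2.92 and 3.19 CPM in brain against 3.97 and 3.25 CPM in spleen (-0.24 ± 0.26, edgeR adjusted p = 0.622). The groups of H2AC11 did not overlap, but the nearest libraries were almost equal. H2AC20 was at 1.49 and 1.20 CPM in brain against 1.12 and 1.66 CPM in spleen (-0.04 ± 0.35, edgeR adjusted p = 0.963), with overlap.

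Of the 8 clustered H3 genes that passed the filter, of 13 in all, 6 had a log2 fold change below 0, with a median of -0.42. They encode H3.1 and H3.2, the forms laid down behind the replication fork. H3C10 was at 1.32 and 1.55 CPM in brain against 2.49 and 2.89 CPM in spleen, with no overlap and a log2 fold change of -0.90 ± 0.29 (edgeR adjusted p = 0.148). H3C8 was at 0.838 and 1.11 CPM in brain against 1.27 and 1.31 CPM in spleen (-0.40 ± 0.34, edgeR adjusted p = 0.533). Summed over the 11 clustered H3 genes in the table the level was 5.22 and 6.18 CPM in brain against 8.07 and 8.15 CPM in spleen, so the sum of the brain libraries stayed below that of the spleen libraries. The highest fold change of all 45 was that of H3C6, 0.66 ± 0.46 at levels of 0.303 to 0.527 CPM (edgeR adjusted p = 0.443), a gene singled out here after its value was seen.

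Nearly all clustered H4 genes encode the same H4 protein, and 6 of the 9 that passed the filter, of 15 in all, had a log2 fold change below 0, with a median of -0.36. H4C14 was at 9.82 and 10.1 CPM in brain against 11.5 and 8.39 CPM in spleen, and H4C15 at 12.7 and 9.54 CPM in brain against 9.86 and 9.14 CPM in spleen. Both overlapped between groups, with log2 fold changes of 0.00 ± 0.22 (edgeR adjusted p = 0.997) and 0.23 ± 0.21 (0.573). H4C9 was at 4.52 and 3.98 CPM in brain against 5.67 and 5.26 CPM in spleen, without overlap (-0.36 ± 0.23, edgeR adjusted p = 0.399). Summed, the H4 genes differed little, with 32.2 and 28.4 CPM in brain against 33.8 and 28.5 CPM in spleen.

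**Figure D3:**
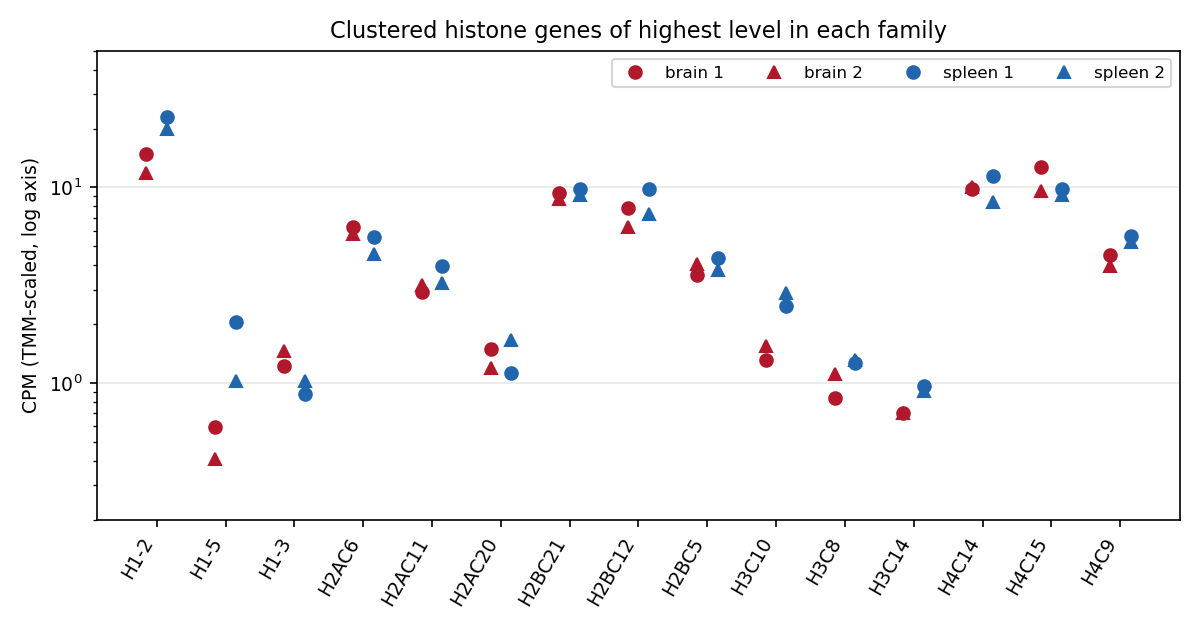
Level of the 3 clustered genes of highest mean CPM in each of the 5 families, in TMM-scaled CPM on a log axis, in each library. H1-2, H1-5 and H3C10 have both brain libraries (red) below both spleen libraries (blue), H1-3 and H2AC6 have them above, and H2BC21, H2BC5 and H4C14 overlap.

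The chromosomal clusters differed in their medians, which is a description of these genes and was not tested. At HIST1 on chromosome 6, which holds 55 of the clustered genes, 32 of 36 that passed the filter had a log2 fold change below 0, with a median of -0.56. At HIST2 on chromosome 1, which holds 11, the count was 4 of 7 and the median -0.04. Of all genes tested, 46.7% were below 0. The 7 include the copies H4C14 and H4C15, and H3C14 and H3C15, which are described further on. They leave out H2AC18 and H2AC19, whose sum had a log2 fold change of -0.57 ± 0.19 on transcript counts (edgeR adjusted p = 0.151). HIST3, also on chromosome 1, holds 2 (H2AC25 and H2BC26), and neither passed the filter. H3-4, classed as a replacement gene by its symbol, lies at HIST3 as well. Of the 2 genes named as clustered that lie elsewhere, H4C16 on chromosome 12 had a log2 fold change of 0.58 ± 0.33 (edgeR adjusted p = 0.353) and H2BC12L on chromosome 21 one of -0.24 ± 0.30 (edgeR adjusted p = 0.689). H2BC12L is also the clustered gene without a stem-loop match.

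H3P6 was the histone gene that edgeR called, and its counts cannot be separated from those of H3-3A by sequence. It had 691 and 522 counts in the brain libraries, or 18.7 and 15.3 CPM, and 0 counts in both spleen libraries. EdgeR called these counts higher in brain with an adjusted p of 0.000367, and no fold is given, because a count of 0 that comes from dividing reads shared with H3-3A sets no bound on the level of H3P6. The call was lost by DESeq2 with the occasion as a block (adjusted p = 0.117), an alternative added with earlier results known, and over 14 alternatives the adjusted p ran from 1.29e-96 to 0.117. H3P6 lies at chr2:174719908-174720318 (+) on GRCh38, 411 bases in introns of the annotated long non-coding RNAs ENSG00000236449 (2 and 1 counts in brain and 0 in both spleen libraries) and ENSG00000290018 (not in the gene table).

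Its sequence is shown because it decides what the count can mean. All 411 bases of H3P6 equal the 411 bases of the H3-3A reading frame, with 0 mismatches, while the reading frame of H3-3B differs from H3P6 at 88 positions (78.6% identity) and that of the clustered gene H3C10 at 97 (76.4%). Bases 1 to 150 of the 3 sequences are given 5′ to 3′, with positions that differ from H3-3A in capitals.
H3-3A: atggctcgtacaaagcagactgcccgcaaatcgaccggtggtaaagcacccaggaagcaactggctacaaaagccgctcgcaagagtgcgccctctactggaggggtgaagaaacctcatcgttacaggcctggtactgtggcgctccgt
H3P6: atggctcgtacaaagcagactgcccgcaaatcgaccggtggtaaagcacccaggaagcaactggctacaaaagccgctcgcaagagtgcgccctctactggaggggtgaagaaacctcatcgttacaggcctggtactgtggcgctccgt
H3-3B: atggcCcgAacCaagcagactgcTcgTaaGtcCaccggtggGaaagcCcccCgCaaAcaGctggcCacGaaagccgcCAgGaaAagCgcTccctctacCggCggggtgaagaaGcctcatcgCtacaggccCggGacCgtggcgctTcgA
All 381 overlapping words of 31 bases in H3P6 are also in the transcripts of H3-3A, so no read that lies inside H3P6 can show by its letters from which of the genes it came. The estimate of the authors' program gave H3P6 1.75% and 1.46% of the sum of H3-3A and H3P6 in the brain libraries and 0% in both spleen libraries. The sum was 39584 and 35795 estimated counts in brain against 40285 and 32105 in spleen. With the counts summed before the fit, the log2 fold change was -0.23 ± 0.13 (edgeR adjusted p = 0.352), and no histone gene was called.

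Other copies showed the same dependence on how shared reads were divided. H2AC18 and H2AC19, both at HIST2, share 503 words of 31 bases, all of those of H2AC18 and 99.8% of those of H2AC19. From the transcript files, H2AC18 had 37.1 and 27.2 estimated counts in brain against 148 and 217 in spleen, and H2AC19 had 349 and 288 in brain against 322 and 161 in spleen. H2AC19 thus held 90.4% and 91.4% of their sum in brain, and 68.4% and 42.6% in spleen. In edgeR's fit on gene sums of the transcript files, where 0.333% of genes were called lower in brain, H2AC18 was lower in brain, with a log2 fold change of -2.85 ± 0.39 (adjusted p = 0.0196), and H2AC19 was at 0.14 ± 0.25 (0.782). Their sum, 386 and 315 estimated counts in brain against 470 and 377 in spleen, had a log2 fold change of -0.57 ± 0.19 and was not called (edgeR adjusted p = 0.151). The groups overlapped in this sum before scaling by library size.

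H4C14 and H4C15 share all 366 words of 31 bases of their main transcripts. Their sum was 834 and 671 estimated counts in brain against 702 and 442 in spleen (log2 fold change 0.12 ± 0.18, edgeR adjusted p = 0.745). Most of these counts lay on other transcripts, whose sharing was not counted. The main transcript of H4C14 held 127.76 and 111.37 in brain against 48.65 and 45.82 in spleen. That of H4C15 held 24.66 and 0 in brain against 16.15 and 65.85 in spleen. H3C14 and H3C15 were given the same estimate as each other in every library, 26.0 and 23.5 in brain against 32.0 and 22.9 in spleen, so they count as 1 measurement (summed, -0.42 ± 0.30, edgeR adjusted p = 0.452). H3C2 had 9 and 16 estimated counts in brain against 30 and 7 in spleen, and H3C3 had 11 and 17 in brain against 25 and 15 in spleen. Of all 89 genes, 15 share at least 90% of their words with another gene and 40 share under 10%. Of the 18 clustered genes that passed the filter with under 10% of shared words, 14 had a log2 fold change below 0, with a median of -0.68. Of all genes tested, 46.7% were below 0. Words were counted on the main GENCODE 44 transcript of each gene. The authors' version of it was over 100 bases longer for 13 of 67 clustered genes and over 100 bases shorter for 16. Whether sharing has a part in these levels was not tested. H1-2, H1-5, H3C10 and H2AX are among the genes with under 10% of shared words.

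**Figure D4:**
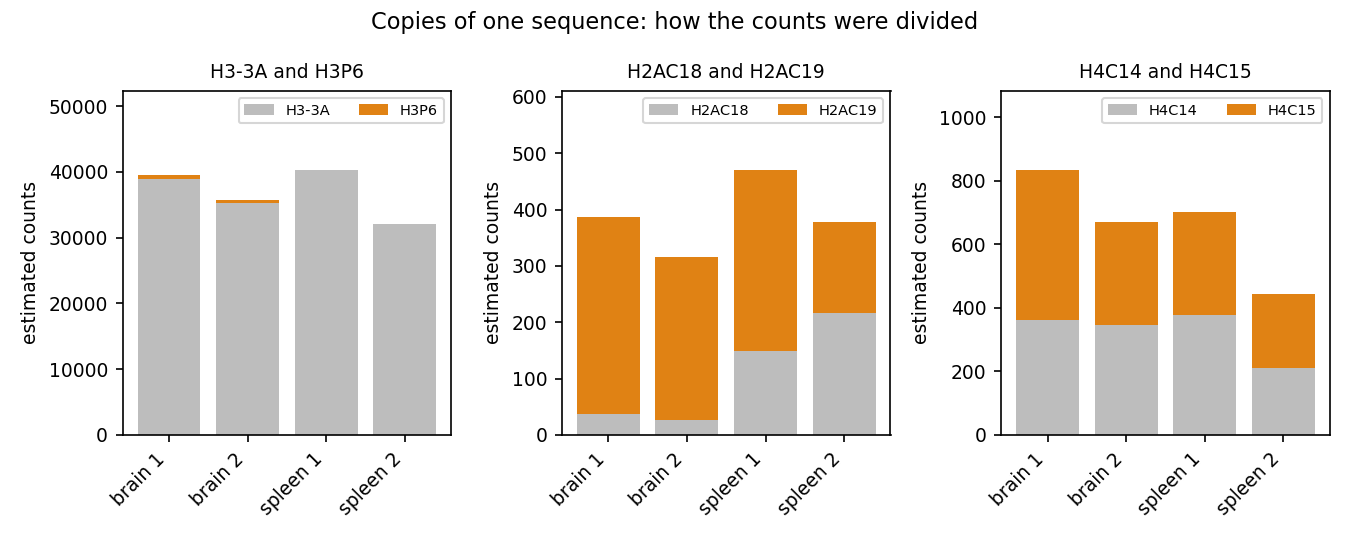
Estimated counts of 3 pairs of copies in each library, stacked so that the height of a bar is the sum of the pair. The H3P6 part is at most 1.75% of its bar and is present in brain only, the boundary between H2AC18 and H2AC19 moves between groups more than the sum does, and the H4C14 and H4C15 parts are near equal throughout.

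Clustered and replacement genes differed greatly in level and, under the settings of the text, little in their median brain to spleen difference. The summed level of the clustered genes was 101 and 92.7 CPM in brain against 126 and 108 CPM in spleen, and that of the replacement genes was 3274 and 3266 CPM in brain against 4011 and 4555 CPM in spleen. Per length, in TPM, the 70 clustered genes summed to 291 in each brain library and 374 and 296 in the spleen libraries, and the 18 replacement genes to 4198 and 4426 in brain against 4831 and 4835 in spleen. The clustered genes thus made up 6.49% and 6.17% of the TPM of both classes in brain and 7.18% and 5.78% in spleen, and the groups overlapped in this share. The medians of the log2 fold change were -0.42 for clustered and -0.40 for replacement genes, and their difference was not tested, because genes are not replicates. They lay further apart with a stricter filter, at -0.22 and -0.39, and with GC and length offsets, at -0.30 and -0.44. Brain and spleen libraries of the same number were also taken as pairs of 1 occasion. Within occasion 1 the median log2 ratio of brain over spleen (with 0.5 CPM added) was -0.29 for the 45 clustered genes. It was -0.33 for the 8 replacement genes and 0.00 for all genes tested. Within occasion 2 these medians were -0.23, -0.46 and 0.05, and 29 of the 45 clustered genes were lower in brain, against 36 within occasion 1.

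In the deposited TPM, fewer histone genes were lower in brain, and so were fewer genes in all. TPM is scaled over human and mouse transcripts together, and on it the median log2 ratio of all genes tested was 0.20, that of the 45 clustered genes -0.15 and that of the 8 replacement genes -0.17. On this scale 31 of the 45 (68.9%) and 6 of the 8 (75.0%) were lower in brain, against 28.5% of all genes, and H3-3B and H1-10 were higher. Directions in the text are therefore relative to the TMM scaling, which sets the median of all genes at 0.04.

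Genes that act on histone messages and histones were read from lists, and no gene of these lists was called by edgeR. The list of histone message processing holds 22 genes, all measured, with 13 below 0 and a median log2 fold change of -0.02. At an unadjusted p under 0.05, 3 were lower and 2 higher in brain, and DESeq2 called none. Of all 17075 genes tested, 46.7% were below 0, 1697 (9.94%) were lower and 1828 higher at that p, and DESeq2 called 2.33% lower. SLBP, the protein that binds the stem-loop, was at 164 and 171 CPM in brain against 202 and 209 CPM in spleen (-0.30 ± 0.13, edgeR adjusted p = 0.248), without overlap. UPF1, a helicase that acts in the decay of histone messages, was at 181 and 168 CPM in brain against 151 and 188 CPM in spleen (0.04 ± 0.15, edgeR adjusted p = 0.901). Of 24 histone chaperones and loaders, 18 were below 0, with a median of -0.28, 8 were lower in brain at an unadjusted p under 0.05, and DESeq2 called 1 lower (ASF1B, a chaperone of H3 and H4). RBBP4, a subunit of the chaperone that loads H3 and H4 at the fork, was at 438 and 458 CPM in brain against 539 and 571 CPM in spleen (-0.31 ± 0.13, edgeR adjusted p = 0.235). NAP1L1, a chaperone of H2A and H2B, was at 1354 and 1236 CPM in brain against 1214 and 1023 CPM in spleen (0.21 ± 0.15, edgeR adjusted p = 0.454).

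Genes of DNA replication were mostly lower in brain, as most histone genes were. Of the 28 genes of the S-phase list, 25 had a log2 fold change below 0 (46.7% of all genes tested did), with a median of -0.29. Both brain libraries lay below both spleen libraries in 20 (26.7% of all genes). EdgeR called 0, with 14 lower and 0 higher at an unadjusted p under 0.05 (9.94% of all genes were lower). DESeq2 called 3 lower (FEN1, PCNA and TK1), where it called 2.33% of all genes. Their summed level was 7362 and 8034 CPM in brain against 8765 and 9634 CPM in spleen, so the groups did not overlap. MCM7, a subunit of the replicative helicase, was at 701 and 710 CPM in brain against 832 and 940 CPM in spleen (-0.33 ± 0.14, edgeR adjusted p = 0.231), and UHRF1, which binds newly replicated DNA, overlapped between groups (-0.10 ± 0.16, edgeR adjusted p = 0.749). In the mitosis list 15 of 20 genes were below 0, with a median of -0.25, 9 lower at an unadjusted p under 0.05, and DESeq2 called 3 lower (AURKB, BIRC5 and UBE2C), but its summed level overlapped between groups. TOP2A, which unlinks replicated DNA, was at 716 and 763 CPM in brain against 744 and 383 CPM in spleen (0.39 ± 0.34, edgeR adjusted p = 0.561), and MKI67, a marker of dividing cells, had a log2 fold change of -0.03 ± 0.16 (edgeR adjusted p = 0.930). Spleen library 2 stood alone for TOP2A, and also for CENPE and CENPF of this list, chosen after their values were seen. CENPE was at 15.2 CPM in spleen library 2 against 122.8 CPM in spleen library 1, and CENPF at 118.1 against 399.4 CPM. KIF11 of this list went the same way, at 119.4 against 248.4 CPM, and NUSAP1 less so, at 239.3 against 331.8 CPM. Not all genes of the list showed this, such as CCNB1 at 189.5 against 196.0 CPM. Whether these levels have a part in those of the histone genes was not tested.

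Of 12 genes of ordinary polyadenylation, 8 were below 0 (46.7% of all genes tested were), with a median of -0.11. At an unadjusted p under 0.05, 2 were lower in brain (9.94% of all genes). DESeq2 called 1 lower (PABPN1, a poly(A)-binding protein of the nucleus), where it called 2.33% of all genes. PAPOLA, a poly(A) polymerase, was at 341 and 354 CPM in brain against 344 and 227 CPM in spleen (0.28 ± 0.20, edgeR adjusted p = 0.462), and NUDT21, a cleavage factor, had a log2 fold change of -0.11 ± 0.14 (edgeR adjusted p = 0.688). Transcripts with more than 1 exon held 25.2% and 26.7% of the estimated counts of clustered genes in brain and 20.1% and 16.8% in spleen, with no overlap. These came from 10 of the 70 genes, H4C15, H4C14 and H2BC5 among them.

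Base composition and length moved with the libraries, and by their medians the clustered genes were shorter and richer in GC than all genes tested. The clustered genes that passed the filter had a median GC content of 56.5% and a median length of 488 bases, against 48.1% and 2482 bases for all genes tested and 48.0% and 1549 bases for the replacement genes. In the fifth of genes with the shortest transcripts, the median deviation from a gene's mean was -0.07 and -0.09 (log2) in brain against 0.09 and 0.10 in spleen. In the fifth of highest GC content brain had -0.05 and -0.07 against -0.04 and 0.17 in spleen. The largest deviation was at the lowest GC content, with 0.135 and 0.154 in brain against 0.141 and -0.392 in spleen. There spleen library 2 alone departed from the other libraries. For the longest transcripts brain had 0.136 and 0.143 against -0.034 and -0.201 in spleen. With offsets that removed these trends, the median log2 fold change was -0.30 for clustered, -0.44 for replacement and -0.08 for all genes. Of these, 34 of 45, 7 of 8 and 9939 of 17075 were below 0. Without the offsets the numbers were 37 of 45, 8 of 8 and 7976 of 17075.

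Leaving out a spleen library changed the calls more than leaving out a brain library. Without spleen library 1, edgeR called 8 histone genes lower in brain (H1-10, H1-2, H2AX, H2AZ1, H2AZ2, H3-3A, H3C10 and MACROH2A1), at a background of 19.0% of all genes. Without spleen library 2 it called 5 lower (H1-2, H1-5, H2AX, H2AZ1 and H2AZ2), at a background of 7.63%. In these fits the lone spleen library was taken to vary as the brain libraries did. With brain library 1 or brain library 2 left out, no histone gene was called lower.

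**Figure D5:**
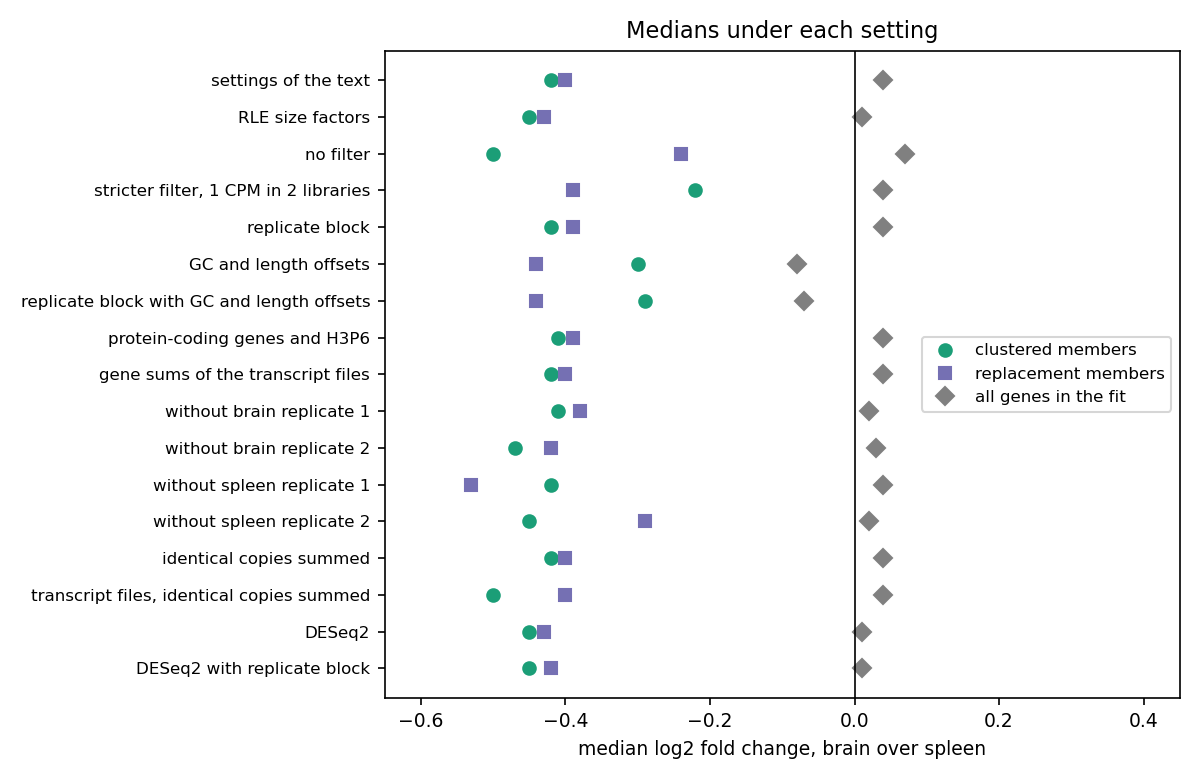
Median log2 fold change of brain over spleen of the clustered genes, the replacement genes and all genes in the fit, under the settings of the text and 16 alternatives. The clustered medians lie between -0.50 and -0.22 and the replacement medians between -0.53 and -0.24, and the median of all genes lies at or above 0.01 except with GC and length offsets.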

How the data were processed

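Poly(A)-selected, stranded libraries of SEM cells from brain (2) and spleen (2) were sequenced, per the labels' protocols. The submitters' processing notes name kallisto 0.42.4, cutadapt 1.5, bcl2fastq 1.8.4 and DESeq2, and the builds GRCh38 and GRCm38, while settings and annotation release are not stated in the sources used here. For each of 199596 human and 104229 mouse transcripts the authors deposited an estimated count and a TPM value. Their deposited gene table sums estimated counts over the transcripts of a gene and rounds them. 2 columns of values that match no sample were not used.

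Symbols and positions came from GENCODE 44 by identifier (56322 of 65217 found). Brain was tested against spleen by edgeR 4.0.16 (R 4.3.3; quasi-likelihood, robust, TMM, filterByExpr) on the gene table, with Benjamini-Hochberg adjustment over the 17075 genes that passed the filter and calls under 0.05. The fit was tested on simulated counts. P-values measure only the spread between these libraries, and no exact permutation test of 2 against 2 can go below 0.333. Floors cover counting error only. Alternatives were RLE factors, other filters, GC and length offsets (mgcv 1.9.3), protein-coding genes only, transcript sums, DESeq2 1.42.0, each library left out, classes by position and a replicate block, and, added after the data were seen, copies summed and DESeq2 with the block. Per the labels the replicate numbers mark occasions. That brain and spleen libraries of the same number belong together was assumed for the block and for the ratios within an occasion. Deviations of same-numbered libraries correlated at 0.0269 (Pearson) and -0.0149 (Spearman) over the genes tested, which are not independent replicates.

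The histone genes and lists were chosen with earlier results of these data known. Named genes are H3P6, the replacement genes that passed the filter, the 3 clustered genes of highest mean CPM in each family, called histone genes and, of each list, up to 4 called genes or the 2 of highest level. Others are named to complete a count, or as chosen after their values were seen. Shared sequence was counted as words of 31 bases between GENCODE 44 transcripts. One of the replacement genes that did not pass the filter is not reported here by name.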

Additional observations from a re-analysis of the deposited data

How the results depend on the processing

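The signs of the medians held: over 16 alternatives the median log2 fold change stayed between -0.50 and -0.22 for clustered and between -0.53 and -0.24 for replacement genes. The clustered median was -0.22 over the 22 genes left by a stricter filter, -0.30 with GC and length offsets and -0.29 with these and the replicate block; leaving out single libraries gave -0.47 to -0.41, and -0.53 to -0.29 for replacement genes. The number of calls did not hold. Of all genes, 345 were called, against 2123 without a filter, 210 with a stricter filter, 805 (340 lower, 465 higher) with GC and length offsets, 202 with protein-coding genes only, 957 by DESeq2 and 404 to 6807 with a library left out. Pairing by the replicate block gave 1853 in edgeR, and 2273 with GC and length offsets, but in DESeq2 the block lowered the number from 957 to 421. Of the histone genes, 1 was called, against 5 without a filter, 5 with the replicate block, 2 with GC and length offsets, 6 with both, 2 on transcript sums, 4 by DESeq2, 1 to 9 with a library left out and 0 where copies were summed, by either source of counts. The 1 gene called by DESeq2 with the replicate block was H2AX, not H3P6. The 34 named genes gave 538 values, of which 476 kept sign and side of the threshold, 40 became called, 1 lost its call (H3P6) and 21 turned in sign, none of them a called value. These were, with GC and length offsets (with or without the replicate block), H1-10 at 0.04, H2AC20 at 0.11, PAPOLA at -0.06 and UPF1 at -0.12, and H4C14 at -0.03 with RLE factors or DESeq2 and -0.01 with DESeq2 and the replicate block. With a library left out, H1-10 ranged from -0.33 to 0.02, H2AC20 from -0.36 to 0.27, H4C14 from -0.19 to 0.20, MKI67 from -0.23 to 0.14, UHRF1 from -0.26 to 0.03 and UPF1 from -0.16 to 0.22. The cause was not tested. Low counts limit most clustered genes.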
